A study of Danio rerio with 15 samples.

Results

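The transcripts described here are the 200 that were most cleanly separated between activated and quiescent progenitors of the adult zebrafish telencephalon, and their levels were followed in the radial glia (RGs) of larvae with and without Notch3. They were chosen by adult values alone. For each transcript, a gap was computed as the lowest log2 CPM among the 6 activated libraries minus the highest log2 CPM among the 3 quiescent libraries, where CPM is the number of reads per 1000000 counted reads after TMM scaling. Of 30279 transcripts, 10796 reached a mean of 10 CPM in the activated libraries, and the 200 with the largest gap among these became the members. They are called activation-enriched below for this choice only.

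Adult neural stem cells of the telencephalon are RGs that spend most of their time in quiescence, a reversible arrest outside the cell cycle. On activation they enter the cell cycle, and their progeny include committed neural progenitors that divide and later become neurons. Notch3 is a transmembrane receptor whose cleaved intracellular part acts on transcription with the DNA-binding protein RBPJ, and in the zebrafish pallium it is known for holding RGs in quiescence. Transcripts enriched in activated cells are therefore a natural set to follow where Notch3 is missing.

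Larval RGs were eGFP-positive cells of the gfap:egfp line sorted from heads at 7 dpf. There were 3 libraries of 15 pooled heads from notch3+/+ larvae and 3 from larvae homozygous for the notch3fh332 mutation. All larvae carried the reporter, so the sorted cells are those in which the gfap promoter had driven eGFP, from the head rather than the pallium alone. Adult cells came from 3-month-old her4:drfp;mcm5:egfp double transgenic fish of wild-type genotype, in pools of 20 telencephali, and were sorted as RFP-positive quiescent RGs (qRGs, 3 libraries), RFP/GFP-double positive activated RGs (aRGs, 3 libraries) and GFP-positive activated neural progenitors (aNPs, 3 libraries). The deposited columns of the last 2 types carry the names activatedNPC and proliferative, which do not settle which type is which, so the 6 were used together as activated libraries.

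Library properties that touch the members are the following. Between 17776468 and 37653792 reads were counted per larval library, with the lowest numbers in replicate 3 of both genotypes, and between 19555038 and 66966289 per adult library. The adult TMM factors ranged from 0.68 to 2.0, and 3 of the 6 activated libraries (activatedNPC 3, proliferative 1 and proliferative 3) had factors above 1.4 and the fewest reads of the 9. When the rule was applied without these 3 libraries, 56 of the 200 members were kept, and with library sizes alone in place of TMM factors 79 were kept. The membership thus depends on which adult libraries enter and on their scaling, and both lists were carried through the larval comparison below. The deposited identifiers are Ensembl transcripts without gene names and none of them matched the gene tables at hand, so the sorted cell types were not checked against marker genes, and neither the level of notch3 nor the function of a member is reported here.

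In the adult libraries, the separation that defined the members was narrow for most of them. The gap ranged from 1.43 for the first member to 0.018 for the last, with a median of 0.22. It exceeded 1 in 8 members and 0.5 in 42, and was under 0.1 in 44. Only 212 of the 10796 eligible transcripts (1.96%) had all 6 activated libraries above all 3 qRG libraries, so the members were nearly all of the transcripts with such a separation. Around the limit of the list, the member with rank 200 had 3.76 CPM in its lowest activated and 3.71 CPM in its highest qRG library. The next transcript, which was not a member, had 9.04 and 8.92 CPM, and its gap of 0.0179 differed from 0.0180 in the fourth decimal only. The mean level of a member in activated libraries was between 1.23 and 14.9 times its mean in qRG libraries, with a median ratio of 2.25. These values chose the members and are given as a description.

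A few libraries set the limits of that separation. The lowest of the 6 activated values was in proliferative 1, the library with the largest TMM factor, for 95 members, and in activatedNPC 2 for 1 member. The highest value was in activatedNPC 2 for 106 members and in proliferative 2 for 71. After each member was centred on its mean over the 9 adult libraries, the median of the members was 0.91 log2 CPM in activatedNPC 2 and 0.57 in proliferative 2. It was −0.04 in proliferative 1 and between 0.16 and 0.24 in the other 3 activated libraries. In the qRG libraries 1, 2 and 3 it was −0.75, −0.70 and −0.65. By these medians, the activated libraries differed among themselves by more than the lowest of them differed from any qRG library. As a share of all counted reads, the members held 0.602%, 1.03% and 0.968% in activatedNPC 1, 2 and 3 and 1.09%, 1.24% and 1.28% in proliferative 1, 2 and 3, against 0.214%, 0.285% and 0.296% in the qRG libraries. In such pools, fewer cells of a type and less RNA per cell cannot be told apart.

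**Figure D1:**
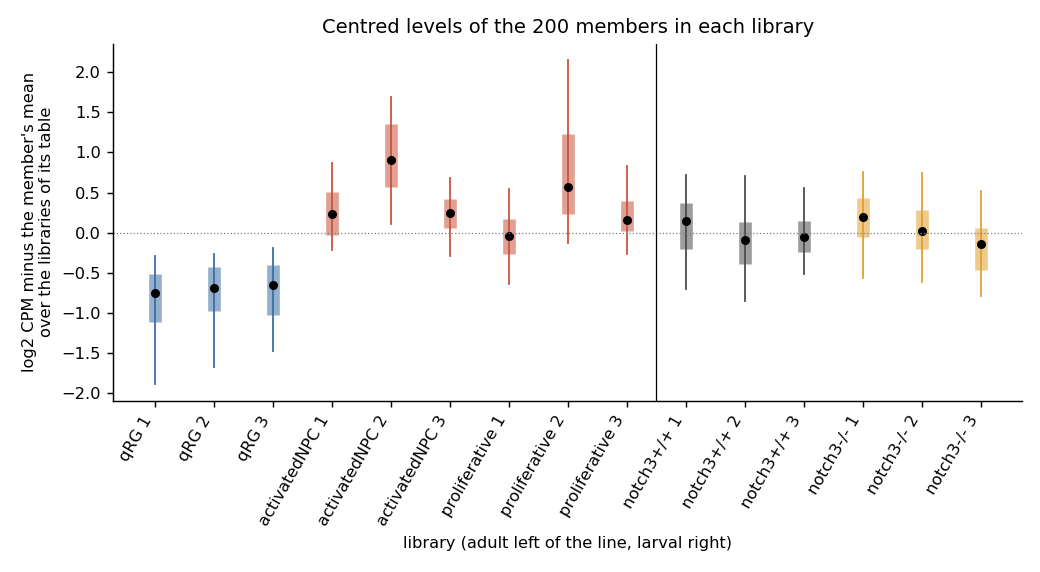
Levels of the 200 members in the 9 adult and 6 larval libraries. The vertical axis is log2 CPM minus the member's mean over the libraries of the same table, dots are medians, thick bars span the middle 50% and thin lines the 5th to 95th percentile of the members. The adult medians run from −0.75 in a qRG library to 0.91 in activatedNPC 2, whereas the larval medians lie between −0.15 and 0.19 with the genotypes interleaved.

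The members were also described by features that the rule did not use. Their median number of exons was 13, against 9 for the 10796 eligible transcripts and 6 for the 200 transcripts chosen by the same rule in the opposite direction, hereafter the quiescence-enriched transcripts. Their median transcript length was 3330.5 bp, against 2429 bp and 2048 bp for the same groups, and the median span on the genome was 26232 bp against 16982 bp for the eligible transcripts. The members were thus longer and had more exons at the median, with lengths from 579 to 31994 bp. This did not hold for each member, as their lower quartiles, 7 exons and 2421 bp, lay below the medians of the eligible transcripts. Single-exon transcripts were 5 of the members (2.5%) and 1.77% of the eligible transcripts. They lay on all 25 chromosomes, with the highest number on chromosome 9, where 14 members (7.0%) lay in comparison to 3.73% of the eligible transcripts. The exons of 19 members (9.5%) overlapped those of another transcript in at least a part. Since the counting used no strand, reads within the shared stretches could not be told apart from those of the neighbours. The share was 7.53% among the eligible transcripts. None of these properties was tested.

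The 2 members with the largest gap are the extreme of the list and not typical of it, with gaps of 1.43 and 1.27 against a median of 0.22. ENSDART00000002078, a transcript of 2 exons and 1604 bp on the minus strand of chromosome 12 (15799599 to 15802466, Zv9), was at 6.84, 3.52 and 9.64 CPM in qRG libraries 1 to 3. In activatedNPC 1, 2 and 3 it was at 43.0, 77.9 and 31.2 CPM, and in proliferative 1, 2 and 3 at 26.1, 134.5 and 50.6 CPM. On the CPM scale, though not on the log2 scale of the rule, its lowest activated library was therefore above its highest qRG library by more than the range of the qRG values. Its mean ratio was 9.08. In larvae it was at 54.8, 44.2 and 48.5 CPM in notch3+/+ replicates 1, 2 and 3, and at 62.7, 44.3 and 47.4 CPM in notch3−/− replicates 1, 2 and 3. The larval genotypes overlapped. Both were within the range of the adult activated libraries, although the larval and adult tables were scaled separately, as holds for every such pair of levels below. The log2 fold change of notch3−/− over notch3+/+ was 0.06 (SE 0.17), with an adjusted p-value of 0.990 in edgeR's quasi-likelihood test.

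ENSDART00000017098, with 20 exons and 3183 bp on the minus strand of chromosome 15 (33133939 to 33162913), was at 7.62, 6.81 and 6.48 CPM in the qRG libraries. It was at 20.0, 59.2 and 21.6 CPM in activatedNPC 1, 2 and 3 and at 18.4, 111.9 and 28.4 CPM in proliferative 1, 2 and 3. The 2 activated libraries in which it was highest were those with the highest median of all members. In larvae its levels differed between replicates far more than between genotypes, at 30.4, 93.7 and 13.2 CPM in notch3+/+ and 23.6, 93.5 and 21.7 CPM in notch3−/− replicates 1, 2 and 3. Replicate 2 was high in both genotypes. The log2 fold change was 0.10 (SE 0.21), with an adjusted p-value of 0.985.

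**Figure D2:**
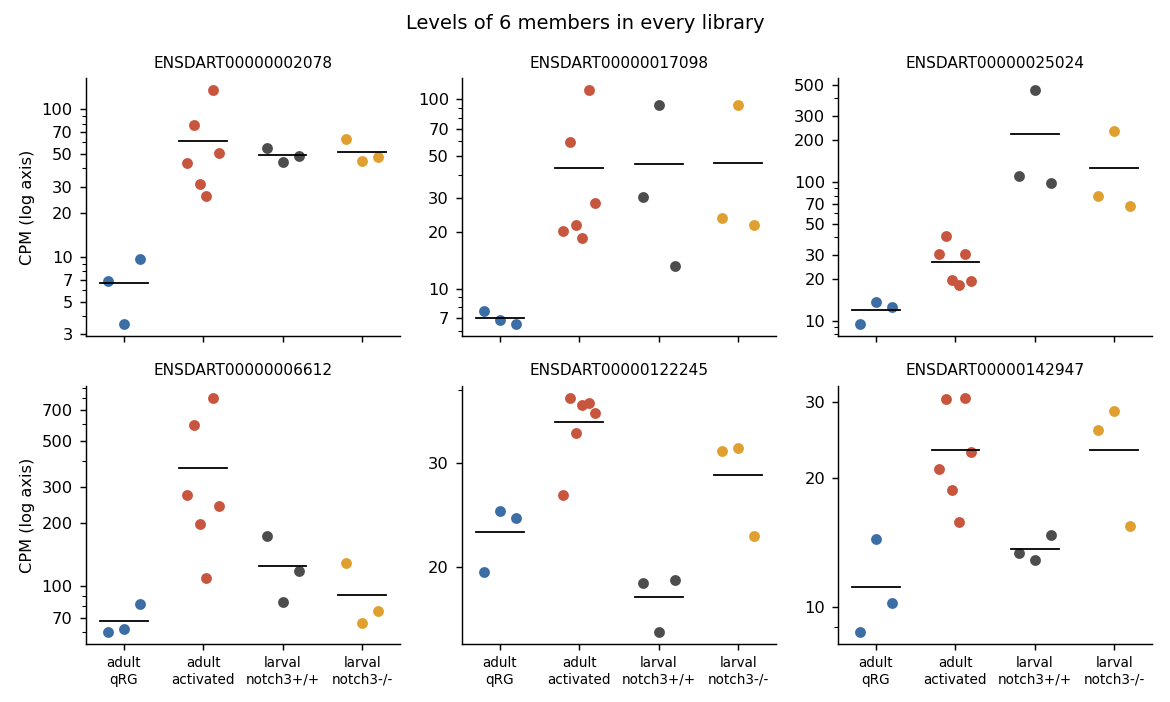
CPM of 6 members in every library on log axes, which differ between panels, with dots for libraries and lines for the mean of each group (qRG n = 3, activated n = 6, each larval genotype n = 3). The top left and top middle panels are the members with the largest gap, the next are the 2 lower and the 2 higher members with the smallest larval p-values. ENSDART00000025024 is at 110, 459 and 99.1 CPM in notch3+/+ and at 79.2, 232 and 66.9 CPM in notch3−/− replicates 1, 2 and 3.

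Reads were counted for nearly all members in the larval libraries. At least 1 read was counted for all 200 in 5 of the 6 larval libraries and for all but 1 in notch3+/+ replicate 1. In notch3+/+ larvae, 115 members had a mean of at least 10 CPM, 19 had at least 100 CPM and 1 was under 1 CPM. The same counts were not taken for other eligible transcripts, so they do not set the members apart. Per kb of transcript, their mean level in notch3+/+ ranged from 0.49 to 346 CPM per kb with a median of 3.48. The member with the highest level per length had 1098, 673 and 552 CPM in notch3+/+ and 999, 911 and 452 CPM in notch3−/− replicates 1, 2 and 3. Its mean was 2135 CPM in adult activated libraries and 360 CPM in qRGs. The 10 members with the most reads took 46.9% of all member reads in notch3+/+ larvae, so that any sum over the members rests largely on these 10.

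Ranks set each member beside itself across the tables, but a rank also depends on the other transcripts of a library. The members' median percentile rank was 76.2, 78.4 and 77.4 in activatedNPC 3, proliferative 1 and proliferative 3, the libraries with large TMM factors. It was 71.8, 75.2 and 72.5 in activatedNPC 1, activatedNPC 2 and proliferative 2. By centred CPM, however, proliferative 1 was the lowest activated library and activatedNPC 2 the highest. The part of depth in the ranks was not tested. The adult ranks rest on the values that chose the members, low in qRGs and high in activated libraries. A larval rank between them may follow from this choice, to a degree that was not tested. The counts are given as a description, without the same counts for other transcripts. Among all 30279 transcripts ordered by CPM, the median member had a mean percentile rank of 63.3 in qRGs, 74.0 in activated cells and 70.6 in notch3+/+ larval RGs. In larval notch3−/− RGs it was 70.8. The larval rank lay above the qRG rank for 152 members and below it for 48, and it lay above the activated rank for 53. For 99 members it was between both adult ranks. Across the 200 members, larval ranks followed the activated ranks with a Pearson correlation of 0.79 (Spearman 0.76) and the qRG ranks with 0.69 (Spearman 0.65). These are descriptions across transcripts. Larval and adult libraries differed in age, dissected tissue, reporter and read length, which cannot be told apart here.

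**Figure D3:**
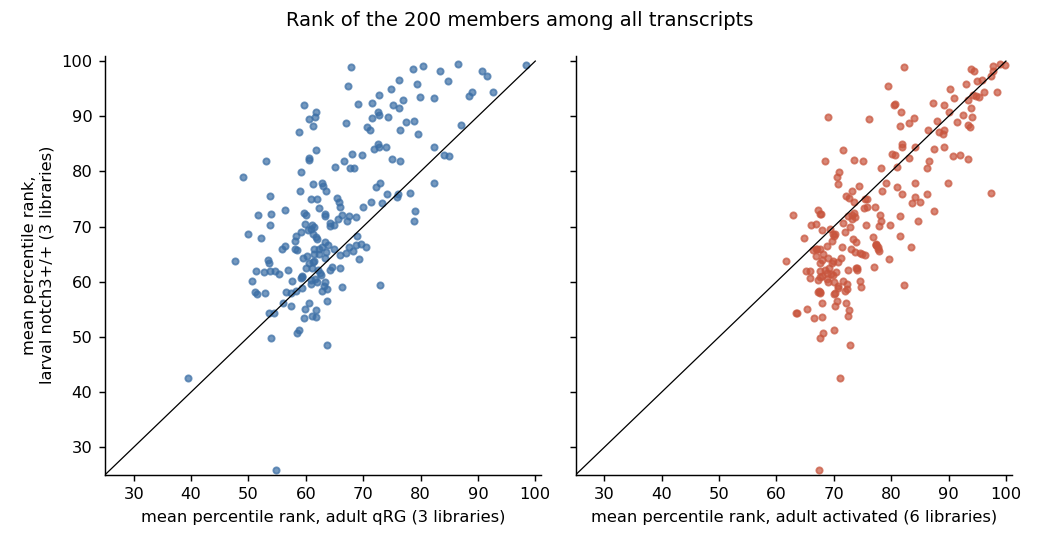
Percentile rank of each of the 200 members among all transcripts, by mean over libraries, in larval notch3+/+ RGs (vertical axes) against adult qRGs (left) and adult activated cells (right), with the line of equal ranks. In the left panel 152 members lie above the line and in the right panel 53.

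The main comparison asked whether transcripts enriched on activation change when larval RGs lack Notch3. No member passed the threshold in either direction. With the replicate number as a block, edgeR's quasi-likelihood test called 105 of 23056 transcripts at an adjusted p-value under 0.05 (0.455%), 86 lower and 19 higher in notch3−/− RGs. All 200 members were among the transcripts tested and 0 were called, with a smallest adjusted p-value of 0.0508. At an unadjusted p-value under 0.05 there were 14 members, of which 5 were higher (3.40% of all transcripts tested) and 9 lower (4.48% of all). With DESeq2 and the same block 1 member was called, against 281 calls over the same 23056 transcripts. In that fit 14 members had an unadjusted p-value under 0.05, and the share of all transcripts with such a DESeq2 p-value was not taken. At the background of 0.455%, few calls among 200 transcripts would be found in any case, so the count of 0 by itself does not set the members apart from other transcripts.

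The fold changes of the members were centred near 0. Their median log2 fold change was 0.02, with the middle 50% between −0.15 and 0.23, and 107 of the 200 were above 0 (53.5%). The median over all transcripts tested was 0.003, with the middle 50% between −0.28 and 0.31 and 50.3% above 0. As a comparison at like abundance, the 50 non-members nearest in mean larval log2 CPM were taken for each member, which gave 6892 different transcripts. Their median was −0.002, with the middle 50% between −0.21 and 0.22. Of these neighbours, each counted as often as it was taken, 0.67% were called by the same test. An unadjusted p-value under 0.05 was found for 10.1% of them, against 7.0% of the members and 7.88% of all transcripts tested. An absolute log2 fold change above 0.5 was found for 32 members (16.0%), in comparison to 18.4% of these neighbours and 33.0% of all transcripts tested. Above 1 there were 2 members (1.0%), against 3.60% and 14.0%. The median standard error of a member's log2 fold change was 0.29, against which a log2 fold change of 0.5 in a single member is not far outside the error.

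**Figure D4:**
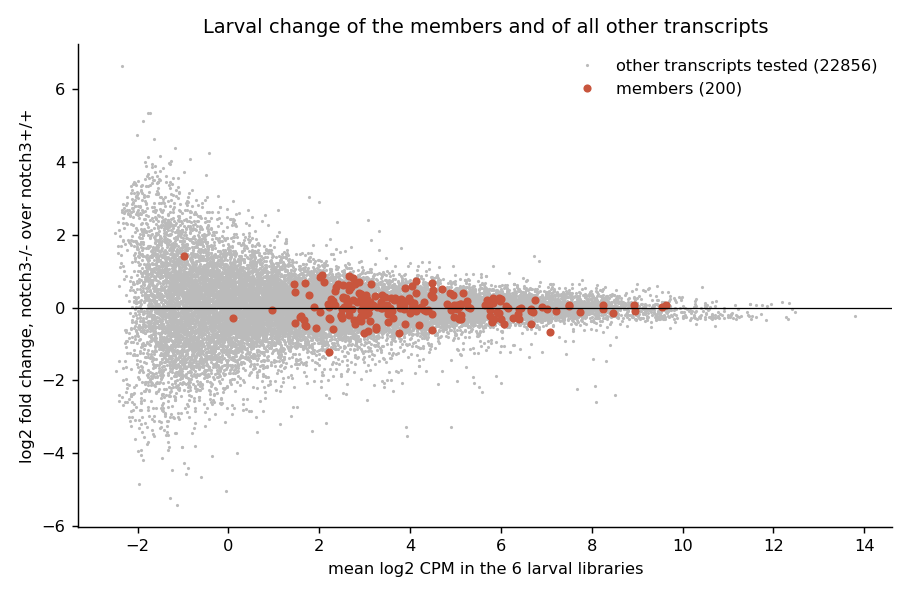
Log2 fold change of notch3−/− over notch3+/+ larval RGs against mean log2 CPM in the 6 larval libraries for the 200 members and all other transcripts tested. The members lie around 0 from −1.23 to 1.42, and the value of 1.42 belongs to a member with under 1 CPM.

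The replicate pairs did not share a direction. The median difference of the members between notch3−/− and notch3+/+ was 0.07 in pair 1, 0.14 in pair 2 and −0.14 in pair 3, on the log2 CPM scale. Members were higher in the mutant library in 108, 119 and 74 of 200 cases, respectively. The nearest non-members had medians of 0.03, −0.06 and 0.00 in the same pairs, and all transcripts tested had −0.01, 0.01 and −0.02. The shift of the members thus had the opposite sign in pair 3, whose libraries had 17832652 (notch3+/+) and 17776468 (notch3−/−) reads, and the part of depth in this was not tested. In all 3 pairs, 29 members were higher in the mutant (14.2% of all transcripts tested) and 28 were lower (14.8% of all), which as 14.5% and 14.0% of the members is close to the background in both directions. For 7 members (3.5%) every mutant library was above every notch3+/+ library, close to the 3.73% of all transcripts tested. For 0 members every mutant library was below, against 3.94% of all. Both directions together gave 3.5% of the members, 8.14% of the nearest non-members and 7.67% of all. Among the nearest non-members, 14.8% were higher and 16.3% lower in the mutant in all 3 pairs. None of these differences was tested.

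**Figure D5:**
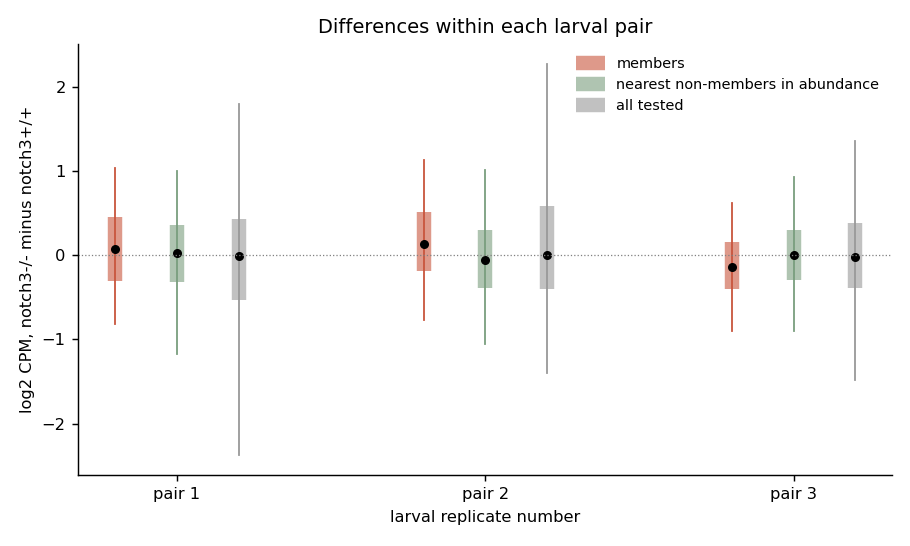
Difference in log2 CPM between the notch3−/− and the notch3+/+ library of each replicate number, for the 200 members, for the 50 nearest non-members in larval abundance per member and for all transcripts tested. Dots are medians, thick bars span the middle 50% and thin lines the 5th to 95th percentile. The members' medians are 0.07, 0.14 and −0.14.

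The summed level of the members showed the same lack of a common direction. They held 0.941%, 0.826% and 0.842% of the counted reads in notch3+/+ replicates 1, 2 and 3 and 0.923%, 0.910% and 0.821% in the notch3−/− replicates. The means were 0.870% ± 0.063 and 0.884% ± 0.056 (SD, n = 3 libraries each), and the difference of 0.015 percentage points was smaller than the spread of the paired differences (SD 0.060). The mutant library was higher in pair 2 only. In every larval library the share was above the highest qRG share and within the range of the activated libraries (0.602% to 1.28%). The adult shares rest on the values that chose the members.

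Members were also grouped by the adult separation and by the larval level, without a test between groups. The 50 members with the largest gap had a median larval log2 fold change of 0.03 and the 50 with the smallest gap 0.06, with 4 and 3 at an unadjusted p-value under 0.05. These were 8.0% and 6.0% of each 50, against 7.88% of all transcripts tested. Across the 200 members, the gap and the larval log2 fold change had a Pearson correlation of 0.03 (Spearman 0.02), and the adult difference of means and the larval log2 fold change had one of −0.15 (Spearman −0.16). Among the 50 members highest in larvae the median was −0.03, with 5 (10%) at an unadjusted p-value under 0.05, all lower in the mutant. Among the 50 lowest it was 0.07, with 1 member (2%) at an unadjusted p-value under 0.05. Of all transcripts tested, 7.88% had such a p-value, and 4.48% had one and were lower. The median standard error was 0.16 for the 50 highest and 0.44 for the 50 lowest, so these counts were not compared at like precision. The correlation of pair differences across members was 0.17, 0.13 and −0.11 for pairs 1 and 2, 1 and 3, and 2 and 3. It was 0.17, 0.10 and 0.16 across the nearest non-members and 0.01, 0.02 and 0.08 across all transcripts tested, so the members were near the former for the first 2 of these and lower for pairs 2 and 3.

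The member closest to the threshold was lower in notch3−/− RGs. ENSDART00000025024 has 16 exons and 3610 bp on the minus strand of chromosome 8 (24432917 to 24465405) and ranked 55 by gap. It was at 110, 459 and 99.1 CPM in notch3+/+ replicates 1, 2 and 3, and at 79.2, 232 and 66.9 CPM in notch3−/− replicates 1, 2 and 3. The genotypes overlapped because replicate 2 was high in both, yet the mutant library was the lower in each pair. The log2 fold change was −0.68 (SE 0.14, adjusted p = 0.0508 in edgeR's quasi-likelihood test). It passed the threshold in 5 alternatives, among them DESeq2 with the replicate block (log2 fold change −0.69, adjusted p = 0.00278), but not without replicate 2 (−0.52, adjusted p = 0.541) or without the block (−0.82, adjusted p = 0.9999). In adults it was at 9.47, 13.8 and 12.7 CPM in qRG libraries and between 18.2 and 40.7 CPM in activated libraries, so that all larval levels were above all adult levels, with both tables scaled separately.

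The next lower member was ENSDART00000006612, with 6 exons and 3855 bp on the minus strand of chromosome 9 (52776692 to 52782926) and a gap rank of 54. It was at 174, 83.7 and 118 CPM in notch3+/+ and 130, 66.4 and 75.9 CPM in notch3−/− replicates 1, 2 and 3. The mutant library was again the lower in each pair although the genotypes overlapped. The log2 fold change was −0.47 (SE 0.14, adjusted p = 0.297), which did not pass the threshold. Its adult levels were higher, with 60.2, 62.3 and 82.2 CPM in qRG libraries and 109 to 802 CPM in activated libraries.

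The 2 higher members with the smallest p-values had even levels in notch3+/+ larvae, with means of 17.7 and 13.7 CPM against a median of 12.3 CPM over the members. ENSDART00000122245, a transcript of 73 exons and 11559 bp on the plus strand of chromosome 12 (18958216 to 19130119), was at 18.8, 15.5 and 18.9 CPM in notch3+/+ and 31.5, 31.8 and 22.5 CPM in notch3−/− replicates 1, 2 and 3. The genotypes did not overlap, and the log2 fold change was 0.68 (SE 0.23, adjusted p = 0.383). Its gap rank was 163, with 19.6, 24.9 and 24.2 CPM in qRG and 26.5 to 38.8 CPM in activated libraries.

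ENSDART00000142947, with 17 exons and 4287 bp on the minus strand of chromosome 22 (22708522 to 22779723), had gap rank 139. It was at 13.4, 12.9 and 14.7 CPM in notch3+/+ and 25.9, 28.6 and 15.4 CPM in notch3−/− replicates 1, 2 and 3. Replicates 1 and 2 of the mutant were high, whereas replicate 3 was just above the highest notch3+/+ library. The log2 fold change was 0.73 (SE 0.27, adjusted p = 0.433). None of these 6 named members had exons that overlapped those of another transcript.

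Among the other members, the most negative value was that of the last member by gap, with a log2 fold change of −1.23 (SE 0.50, adjusted p = 0.526) and pair differences of −2.68, −0.36 and −0.66. The most positive value, 1.42 (SE 1.41, adjusted p = 0.947), belonged to a member with means of 0.47 CPM in notch3+/+ and 0.81 CPM in notch3−/−, a level at which few reads were counted. Neither differed from 0 beyond the error of the test after adjustment.

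These other ways of choosing the members, added after the data were seen, gave other transcripts and no larval call. For the 200 transcripts chosen without the 3 adult libraries with large TMM factors, edgeR called 0 in larvae, 18 had an unadjusted p-value under 0.05 and the median log2 fold change was −0.06. With library sizes alone in the rule, 0 were called, 29 had an unadjusted p-value under 0.05 and the median was −0.07. The members' own count was 14 of 200, and this share of 7.0% compares with 7.88% of all transcripts tested and 10.1% of the nearest non-members. The unadjusted counts of both other lists, 18 and 29 of 200, were thus above it, the second by more. As a share of 200, the 18 lay between 7.88% and 10.1%, and the 29 lay above both. A share near the background thus did not hold for the list made with library sizes alone. Nearest non-members were not taken for either list. Both medians lie on the other side of 0 from that of the members. All lists were followed in the same larval pairs. The spread of the pairs (SD 0.15 of the members' pair medians) therefore does not measure a difference between lists, which was not tested. For comparison, 21 of 197 tested quiescence-enriched transcripts were called in larvae (10.7%, against the background of 0.455%), 19 lower and 2 higher in notch3−/−, with a median log2 fold change of −0.05. The quiescence-enriched transcripts were more abundant in larvae than the members (median log2 CPM 4.59 against 3.60). Their median standard error was smaller (0.23 against 0.29), so the calls were not compared at like abundance. The difference between both groups of transcripts was not tested.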

How the data were processed

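Reads were aligned by the authors to Zv9 with TopHat2, and unique alignments were kept. The deposited tables hold raw counts of reads per Ensembl transcript and, beside them, transcript lengths in bp. Their headers name featureCounts 1.5.0, where the methods name HTSeq. In R 4.3.3, edgeR 4.0.16 gave TMM factors, CPM (prior count 2 on the log2 scale) and the larval fold changes with their p-values (quasi-likelihood test, filterByExpr, Benjamini-Hochberg adjustment over 23056 transcripts, threshold 0.05). Standard errors were derived from the F statistics. Overlaps of exons were found with GenomicRanges 1.54.1, and DESeq2 1.42.0 served as an alternative. The scripts for the rule and the larval test were tested on simulated data. The simulated differences were larger than those of most members, so they checked the scripts and not what can be detected among the members. The replicate number of the labels was a block in the larval model. The numbers were taken as pairs because the paper describes independent batches of larvae and a correction of batch effects. The labels do not state that the numbers stand for these batches. Deviations from genotype means correlated at 0.227, 0.264 and 0.317 between the libraries of replicates 1, 2 and 3. Libraries of unlike numbers were not compared in this way, and the part of depth in these correlations was not tested.

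Members and lists were chosen with earlier results of these data known. Since no identifier could be paired with a name, the named transcripts are the 2 members with the largest gap and, in each larval direction, the 2 with the smallest p-value. Marker lists and sequences were not used for the same reason. With 3 libraries per genotype the number of libraries limits the precision of each value.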

Additional observations from a re-analysis of the deposited data

How the results depend on the processing

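Over all transcripts, the 105 larval calls became 1 without the replicate block, 281 with DESeq2 and the block, 50 with DESeq2 and no block, 382 when only rows without any read were removed, 246 with at least 10 counts in total and 36 at an adjusted p-value under 0.01. They were 48 to 325 when each replicate pair was left out. The calls among the 200 members were 0 without the replicate block, and 1 with DESeq2 and the paired design, 1 with no filter and 1 with at least 10 counts. They were 0 to 2 when each replicate pair was left out. ENSDART00000025024 was the member called in each of these, and ENSDART00000051890 (log2 fold change 1.15, adjusted p = 0.0478, named after its values were seen) was the second without replicate 3. The totals over all transcripts in the same settings are those given above, and their shares of the transcripts tested were not taken. All alternatives to the rule gave 0 calls. The median of the members ranged from −0.03 to 0.09 when each replicate pair was left out, and from −0.01 to 0.06 when each adult library was left out of the rule. The difference in their share of larval reads ranged from −0.0196 to 0.0328 percentage points. When each replicate pair was left out, the log2 fold change of ENSDART00000002078 ranged from −0.012 (without replicate 1) to 0.12, and that of ENSDART00000017098 from −0.16 (without replicate 3) to 0.34, so both changed sign. Of the 200 members, 97 were kept with a minimum of 20 CPM, 128 without proliferative 1, and between 146 and 192 without any other adult library. With the alternatives added after the data were seen, 56 were kept without the 3 libraries of large TMM factor and 79 with library sizes alone. DESeq2 without the block was also added then. With the minimum of 20 CPM, the loss follows from the rule, since only members with a lower mean in the activated libraries dropped out. The cause of the other changes was not tested. With a median standard error of 0.29, depth and 3 pairs limit what can be detected in a single member.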

Other observations

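Over the 10796 eligible transcripts, the log2 CPM of each of the 6 activated columns correlated most with a column of the same name. For proliferative 2 this was proliferative 3 (r = 0.84), whereas each of the other 8 adult columns had a nearest column at r of at least 0.90. ActivatedNPC 3 correlated with activatedNPC 1 at 0.90, with proliferative 1, 2 and 3 at 0.79, 0.73 and 0.85, and with qRG 1, 2 and 3 at 0.81, 0.86 and 0.87. ActivatedNPC 1 correlated with the proliferative columns at 0.63, 0.77 and 0.71 and with the qRG columns at 0.87, 0.90 and 0.90. For activatedNPC 2 the values were 0.59, 0.77 and 0.69 against 0.77, 0.85 and 0.84. The activatedNPC columns were thus mostly nearer to the qRG than to the proliferative columns. A swap of names among these 6 columns would leave the 200 members as they are, since the rule used the 6 together.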
